A study of Mus musculus with 12 samples.

Results

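Complement is a set of blood and tissue proteins that mark particles and cells for removal, recruit immune cells and can open membranes. The 9 complement genes described here, C3, C4b, C1qa, C1qb, C1qc, C1ra, C1s1, Cfb and Serping1, were taken as a named list out of 54119 genes summed from the deposited transcript estimates, and all 9 were among the 19150 genes that passed a filter on low counts and were tested. RNA was measured in cerebral vessels isolated from the forebrain of C57BL6 wild type mice aged 2 to 3 months. The mice received PBS, or LPS (bacterial lipopolysaccharide, which produces acute systemic inflammation) at 10 mg/kg, by intraperitoneal injection, and the LPS groups were collected after 15 min, 30 min or 4 h. Each of the 4 groups held 3 libraries, and each library was made from a pool of 1 male and 1 female mouse, so that a library averages 2 animals and says nothing of either sex. No gene was altered in any group, and the time at which PBS mice were collected was not given in the sources used here. The vessels were a mixed preparation, enriched on a dextran gradient and a mesh after the meninges were removed, and the values are therefore sums over all cells that stayed with the vessels.

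In the classical pathway, C1q binds to an antibody or a surface, the proteases C1r and C1s bound to it become active, and C1s cleaves C4 and C2 to form an enzyme that cleaves C3. In the alternative pathway, C3b joins factor B, the product of Cfb, into a second enzyme that cleaves further C3 and so amplifies the response. Serping1 encodes the C1 inhibitor, which inactivates C1r and C1s. The liver makes most circulating complement. In the brain, microglia and perivascular macrophages are the main source of C1q, while astrocytes, fibroblasts and endothelial cells can make C3, C4, factor B and the C1 inhibitor, more so during inflammation.

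All 9 genes are protein coding in GENCODE M21 on GRCm38. The C1q chain genes lie side by side on the minus strand of chromosome 4, C1qb at chr4:136880129-136886187, C1qc at chr4:136889804-136893065 and C1qa at chr4:136895917-136898803. The protease genes C1ra at chr6:124512405-124523443 on the plus strand and C1s1 at chr6:124530345-124542359 on the minus strand are also neighbours. C4b at chr17:34728380-34743882, Cfb at chr17:34856374-34862518 and C3 at chr17:57203970-57228136 are all on the minus strand of chromosome 17, and Serping1 is at chr2:84765387-84775444 on the minus strand.

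RefSeq promoter windows on GRCm38.p6 were found for 5 of the 9 genes, C1qb, C1qc, C1ra, C1s1 and C3. The 250 bases before the annotated start are shown for C3, C1s1 and C1qb, since these genes rose at 4 h and their windows hold no base of an annotated exon of the same gene. Sequences are on the strand of the gene, 5′ to 3′, and capitals mark letters that match a searched motif. The C3 window is chr17:57228137-57228386, the C1s1 window chr6:124542360-124542609 and the C1qb window chr4:136886201-136886450, all minus strand.
C3: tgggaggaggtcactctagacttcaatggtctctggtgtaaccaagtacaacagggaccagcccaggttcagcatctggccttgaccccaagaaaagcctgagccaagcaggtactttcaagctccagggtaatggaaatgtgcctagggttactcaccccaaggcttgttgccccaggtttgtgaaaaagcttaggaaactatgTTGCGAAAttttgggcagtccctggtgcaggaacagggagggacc
C1s1: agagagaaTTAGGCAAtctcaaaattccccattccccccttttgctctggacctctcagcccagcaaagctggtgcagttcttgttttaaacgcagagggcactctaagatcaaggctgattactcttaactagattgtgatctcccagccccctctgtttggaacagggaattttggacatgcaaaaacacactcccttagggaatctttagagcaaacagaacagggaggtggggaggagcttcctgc
C1qb: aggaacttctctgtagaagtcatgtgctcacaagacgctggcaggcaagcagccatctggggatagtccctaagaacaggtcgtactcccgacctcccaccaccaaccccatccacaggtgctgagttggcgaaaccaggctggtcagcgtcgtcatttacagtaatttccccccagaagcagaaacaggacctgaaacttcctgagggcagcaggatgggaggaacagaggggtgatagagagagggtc

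The motif in capitals in the first pair is TTGCNNAA, the core bound by C/EBP factors, which 9.56% of all 32851 RefSeq windows of the same length held on either strand. In C3 the match TTGCGAAA lay 45 to 38 bases before the start on the strand of the gene, and in C1s1 the match was on the opposite strand, 242 to 235 bases before the start. No match to the STAT palindrome TTCNNNGAA (7.02% of all windows), the interferon-stimulated element GAAANNGAA (7.13%), the AP-1 site TGANTCA (6.75%) or TATAAA (12.4%) was found in any of the 6 windows of the members, C1s1 having 2. The kappaB consensus (7.25% of all windows) and the PU.1 core GAGGAAG (10.6%) each matched once, both in the C1qc window, where the annotated gene start differed between RefSeq and GENCODE. These matches describe letters and not binding.

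Depth was 18.3 to 25.9 M fragments per library. The LPS 4 h libraries had 18.3 to 21.1 M, and LPS 15 min replicate 2 was also low at 20.7 M. Levels are given as counts per 1 M fragments (CPM) scaled by the trimmed mean of M values (TMM). A gene is said to have risen or fallen, or to have been called, where edgeR's test against a 1.5-fold change gave p below 0.05 after Benjamini-Hochberg adjustment across the 19150 genes. TMM centred the median log2 fold change of all genes at -0.01 at LPS 4 h against PBS. With library size as the only scaling that median was -0.71, and the share of higher genes among those called was 18.2%, against 58.0% with TMM. The like shares were 61.4% against 82.6% at 30 min, 37.3% against 57.9% between 30 and 15 min, 21.7% against 58.9% between 4 h and 30 min, and 18.3% against 54.0% between 4 h and 15 min. Changes at 4 h are therefore relative to the other genes of the library.

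At LPS 4 h, 6 of the 9 complement genes rose, none fell, and 3 were not called, while 32.8% of all genes tested were called and 19% were called higher. Cfb, C3 and C1ra rose most, by 35.3-fold, 18.7-fold and 8.78-fold, followed by Serping1 (2.16-fold), C1s1 (2.11-fold) and C1qb (1.79-fold). C4b, C1qa and C1qc did not pass the test. For 8 of the 9 genes all LPS 4 h libraries were above all PBS libraries, against 35.9% of all genes, and C1qc overlapped. The median log2 fold change of the 9 genes was 1.07, against -0.01 over all genes tested. Earlier, 1 gene (C3) rose at 30 min, and none passed the test at 15 min.

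**Figure D1:**
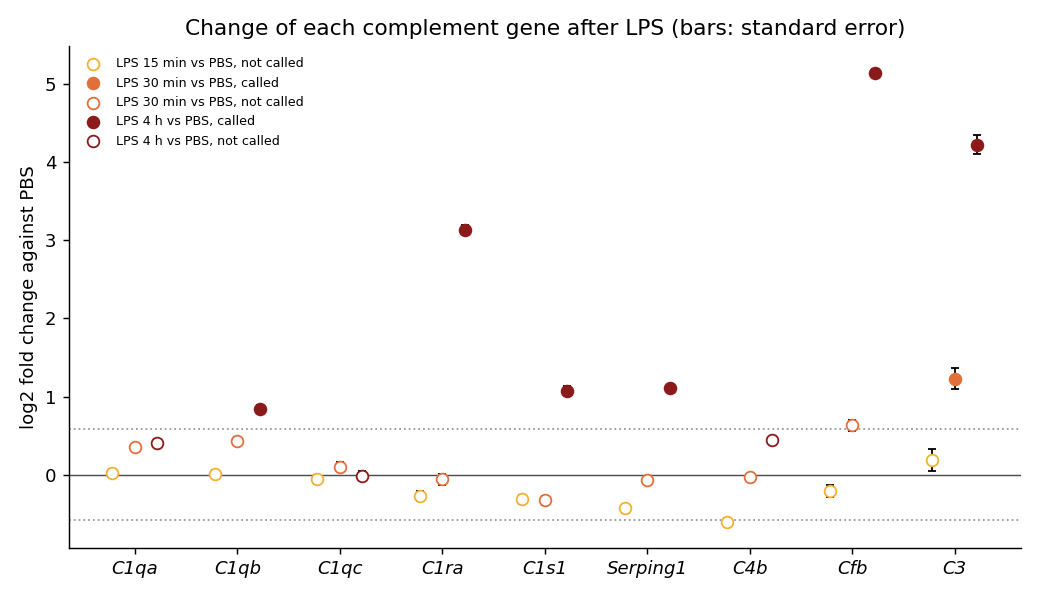
Log2 fold change of each complement gene against PBS (vertical axis) at each time after LPS. Bars are standard errors of the edgeR fit, filled points passed the test, and dotted lines mark a 1.5-fold change. Cfb, C3 and C1ra stand above 3 at 4 h, C3 is the only filled point at 30 min, and at 15 min no point is filled.

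Cfb encodes factor B, the protease subunit of the alternative pathway convertase. Its level was 8.24, 10.2 and 10.1 CPM in the PBS libraries, 8.44, 8.37 and 7.81 CPM at LPS 15 min, 15.2, 14.7 and 14.4 CPM at 30 min, and 334.5, 338.4 and 336.5 CPM at 4 h. The PBS and 15 min libraries overlapped, the 30 min libraries stood above both, and the 4 h libraries lay far above all others with little spread. The log2 fold change against PBS was 5.14 ± 0.05 (SE, n = 3 and 3 libraries) at 4 h, with an edgeR adjusted p of 3.25e-27. At 30 min it was 0.63 ± 0.07, which did not pass the test against 1.5-fold (edgeR adjusted p = 0.957).

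C3 is the central protein on which the pathways converge. It was the lowest of the 9 genes in PBS, at 3.00, 3.75 and 2.56 CPM, and measured 3.63, 4.12 and 2.94 CPM at 15 min, 7.37, 7.40 and 7.15 CPM at 30 min, and 55.7, 59.3 and 60.0 CPM at 4 h. The PBS values rest on only 67 to 111 fragments per library, against 722 to 891 at 4 h. The 15 min libraries overlapped PBS, whereas every 30 min library was above every PBS library and every 4 h library above those. The log2 fold change was 1.23 ± 0.13 at 30 min (edgeR adjusted p = 0.000242) and 4.22 ± 0.12 at 4 h (edgeR adjusted p = 9.53e-19). The call at 30 min was lost, with a log2 fold change of 0.93 (edgeR adjusted p = 0.205), when average transcript length entered the fit, and with 0.89 in limma on the authors' normalized table with 1 added. Both settings depend on transcript lengths, and limma is also a different test. The reason for the lost calls was not tested. In PBS replicate 3, 4 of the 67 fragments were assigned to C3-203, a model of 554 bases. The authors' normalized count there was 105.8, against 62.45 from 80 fragments in PBS replicate 1.

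Within a library, a ratio of 2 genes is not changed by any scaling factor. The count of Cfb over that of C3 was 2.75, 2.73 and 3.94 in PBS, 2.33, 2.03 and 2.65 at 15 min, 2.07, 1.99 and 2.01 at 30 min, and 6.01, 5.70 and 5.61 at 4 h. The count ratio was below PBS in all libraries of the early times and above PBS in all libraries at 4 h. As a ratio of TPM, which adjusts for transcript length, the early separation was lost: PBS was at 5.31 to 6.78, 15 min at 3.81 to 7.04 and 30 min at 4.90 to 6.05, while 4 h was above all of them at 13.7 to 14.9. The lowest PBS value, 5.31 in replicate 3, depends on 4 fragments of the short model C3-203. They made 0.834 of the 1.57 TPM of C3 in that library. With 3 libraries against 3 the exact two-sided permutation p cannot go below 0.1, which each of these comparisons of counts reached (0.141 after Benjamini-Hochberg adjustment over the 24 ratio comparisons made).

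**Figure D2:**
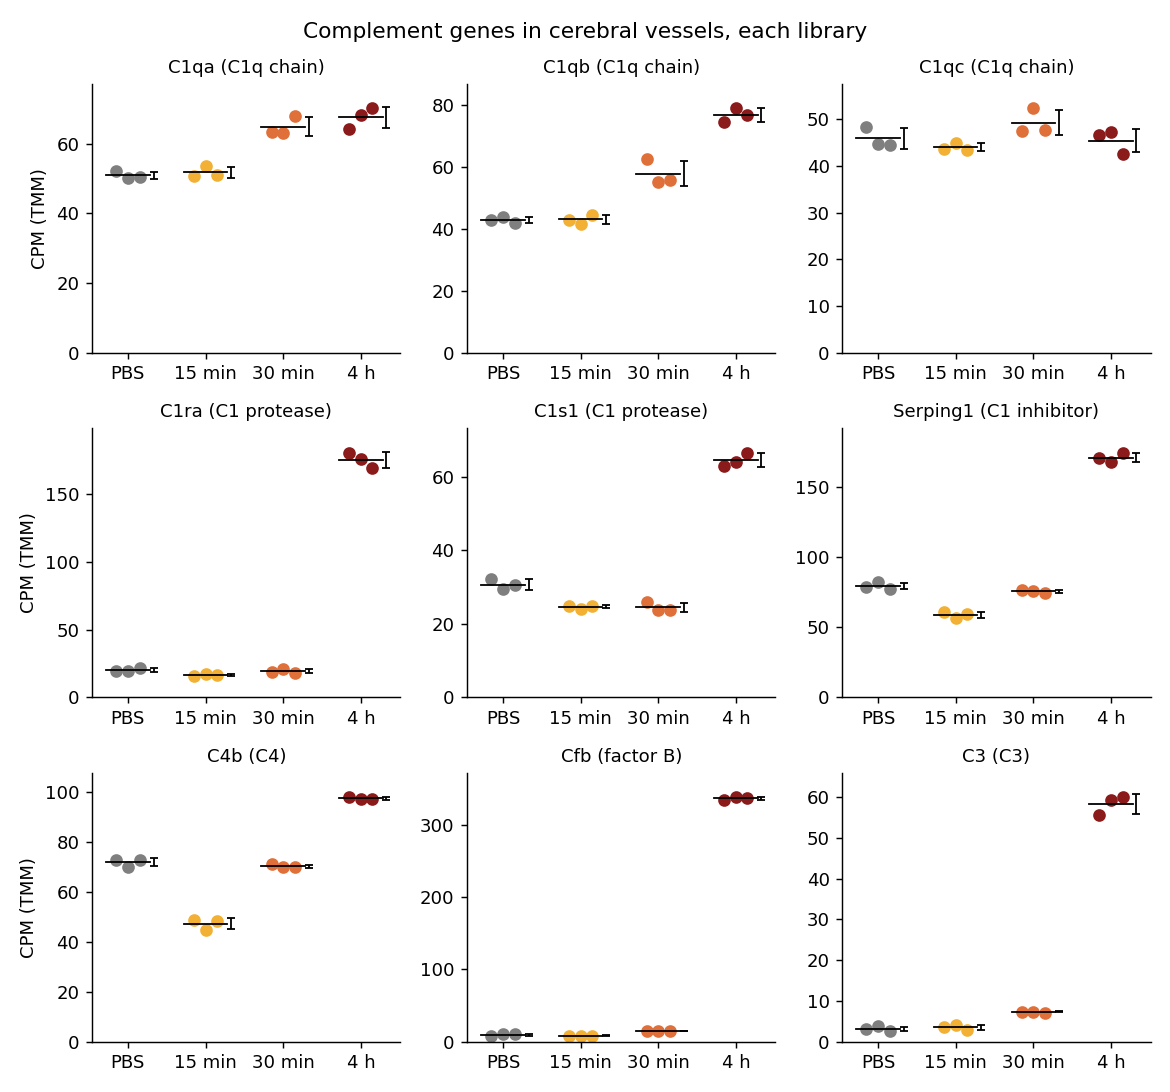
Level of each complement gene in CPM (vertical axis, from 0) in each of the 12 libraries (points) by group, with the mean as a line and the SD as a bar at its right. The 4 h libraries are apart from all others for Cfb, C3, C1ra, C1s1, Serping1, C4b and C1qb, while those of C1qc overlap PBS and those of C1qa overlap 30 min.

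The proteases of the C1 complex rose at 4 h to unequal degrees. C1ra, which encodes C1r, measured 19.0, 19.4 and 21.6 CPM in PBS, 15.8, 17.2 and 16.6 CPM at 15 min, 18.9, 20.9 and 17.7 CPM at 30 min, and 180.9, 175.9 and 169.3 CPM at 4 h. Its 4 h libraries were all above the rest, with a log2 fold change of 3.13 ± 0.06 (edgeR adjusted p = 8.56e-22). C1s1, which encodes C1s, measured 32.2, 29.3 and 30.5 CPM in PBS, 24.9, 24.1 and 24.9 CPM at 15 min, 25.9, 23.6 and 23.8 CPM at 30 min, and 63.0, 63.9 and 66.5 CPM at 4 h. C1s1 was lower than PBS without overlap at both early times and higher at 4 h, where the log2 fold change was 1.07 ± 0.06 (edgeR adjusted p = 6.89e-09).

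The count ratio of C1ra to C1s1 was 0.591, 0.661 and 0.708 in PBS and 2.87, 2.75 and 2.55 at 4 h, with no overlap and an exact permutation p of 0.1, the smallest possible. At 15 min the ratio overlapped PBS (0.634 to 0.716), and at 30 min it was above PBS without overlap (0.729, 0.887 and 0.743, exact permutation p = 0.1). As a ratio of TPM the 30 min libraries overlapped PBS (0.493 to 0.724 against 0.521 to 0.580). That overlap came from LPS 30 min replicate 1 (0.493). There 5 fragments on C1s1-205, a model of 336 bases, gave 3.40 of the 17.6 TPM of C1s1. The kit does not mark strand, and C1s1 shares 576 exon bases with the antisense gene Gm16567 (0 to 19.0 fragments per library), so reads from the shared bases cannot be told apart.

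Serping1, which encodes the inhibitor of both proteases, had the highest CPM of the 9 genes in PBS, at 78.7, 82.0 and 77.7. It measured 60.9, 56.6 and 59.3 CPM at 15 min, 76.9, 75.8 and 74.5 CPM at 30 min, and 170.7, 168.5 and 174.9 CPM at 4 h. The 15 min libraries were all below PBS, the 30 min libraries were just below it without overlap, and the 4 h libraries were all above. The log2 fold change at 4 h was 1.11 ± 0.04 (edgeR adjusted p = 1.37e-12). The count ratio of Serping1 to C1s1 overlapped PBS at 4 h (mean 2.66 against 2.60, SD 0.0440 and 0.182, exact permutation p = 0.6). It was below PBS at 15 min by a narrow gap (2.35 to 2.44 against 2.45 to 2.80) and above it at 30 min (2.97 to 3.22), each without overlap and with an exact permutation p of 0.1, but as a ratio of TPM it overlapped PBS at both early times. At 30 min the overlap in TPM came from the same LPS 30 min replicate 1 (3.80). The count ratio of C1ra to Serping1 went from a mean of 0.252 in PBS to 1.02 at 4 h without overlap.

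The C1q chains, which are assembled into one protein, did not change alike. C1qb measured 42.7, 43.6 and 41.9 CPM in PBS, 42.9, 41.6 and 44.4 CPM at 15 min, 62.5, 54.9 and 55.8 CPM at 30 min, and 74.4, 78.9 and 76.8 CPM at 4 h. It overlapped PBS at 15 min and stood above it at 30 min and at 4 h, when it passed the test with a log2 fold change of 0.84 ± 0.05 (edgeR adjusted p = 2.50e-05). C1qa measured 52.1, 50.2 and 50.6 CPM in PBS, 50.9, 53.7 and 50.9 CPM at 15 min, 63.4, 63.3 and 68.1 CPM at 30 min, and 64.2, 68.3 and 70.3 CPM at 4 h. Its libraries were above PBS at 30 min and 4 h without overlap, but log2 fold changes of 0.35 ± 0.05 and 0.41 ± 0.05 did not pass the test against 1.5-fold.

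C1qc measured 48.4, 44.7 and 44.6 CPM in PBS, 43.7, 44.9 and 43.4 CPM at 15 min, 47.6, 52.4 and 47.8 CPM at 30 min, and 46.6, 47.2 and 42.6 CPM at 4 h. It overlapped PBS at all 3 times, and its log2 fold change at 4 h was -0.01 ± 0.06. The count ratio of C1qb to C1qa was 0.820, 0.869 and 0.828 in PBS and 1.16, 1.16 and 1.09 at 4 h, and that of C1qc to C1qa was 0.929, 0.891 and 0.881 in PBS and 0.725, 0.691 and 0.606 at 4 h. Both ratios separated from PBS at 4 h, in opposite directions, each with an exact permutation p of 0.1.

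**Figure D3:**
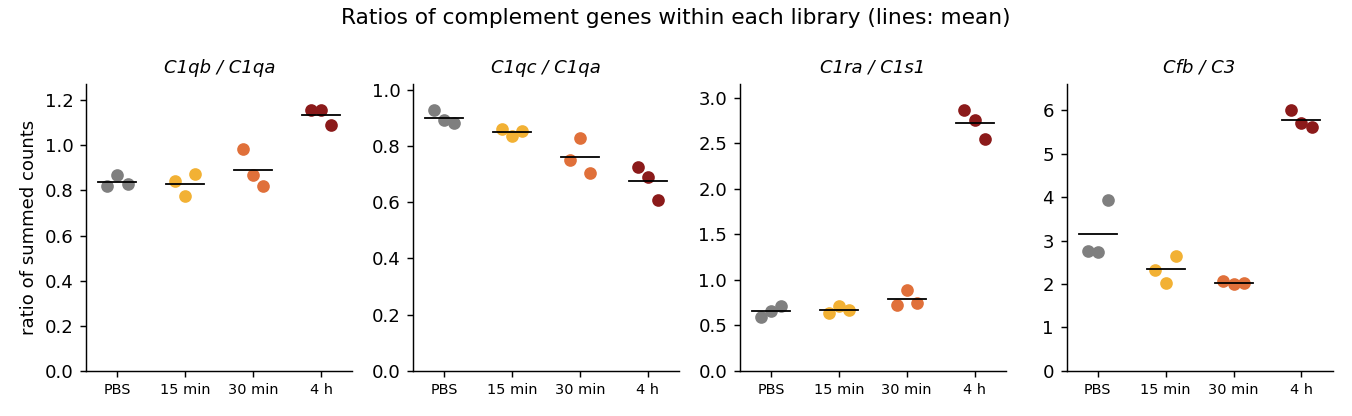
Ratio of the summed counts of a pair of complement genes within each library (vertical axis, no unit, from 0), by group, with the mean as a line. At 4 h the ratios C1qb to C1qa, C1ra to C1s1 and Cfb to C3 lie above all PBS libraries and the ratio C1qc to C1qa lies below them.

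C4b, which encodes the C4 cleaved by C1s, measured 72.5, 69.9 and 72.8 CPM in PBS, 48.8, 44.6 and 48.4 CPM at 15 min, 71.0, 69.8 and 70.0 CPM at 30 min, and 97.9, 97.2 and 97.0 CPM at 4 h. The 15 min libraries were below all others, the 30 min libraries overlapped PBS, and the 4 h libraries were above all others. The log2 fold changes of -0.60 ± 0.04 at 15 min and 0.44 ± 0.04 at 4 h did not pass the test against 1.5-fold, while that between 4 h and 15 min did (1.04 ± 0.04, edgeR adjusted p = 2.40e-10). With library size as the only scaling, the values at 4 h against PBS turned to -0.26 for C4b and -0.29 for C1qa, and C1qc was called lower at -0.72. Under the same scaling Cfb (4.44), C3 (3.52) and C1ra (2.43) were still called higher at 4 h, whereas C1s1 (0.37), Serping1 (0.40) and C1qb (0.14) were not.

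None of the 9 genes was called at 15 min in edgeR, where 4.18% of all genes were. None had an unadjusted p below 0.05 in that test, against 8.77% of all genes. DESeq2 with the same threshold also called 0, against 573 of all genes. In limma 0 were called, against 406 of all genes with 1 added and 385 with 10 added. In 4 of the 9 genes, C4b, Serping1, C1s1 and C1ra, all LPS 15 min libraries were nevertheless below all PBS libraries, against 24.1% of all genes, and none of the 9 was above without overlap, against 25.2% of all genes. Their log2 fold changes were -0.60, -0.43, -0.31 and -0.27. With no fold limit, edgeR called 5 lower, these and Cfb (-0.22, adjusted p = 0.0305), against 18.2% of all genes called lower.

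At 30 min, 1 of the 9 genes was called and it was higher, against 4.58% of all genes in either direction and 3.78% higher. In 6 genes the 30 min and PBS libraries did not overlap, against 46.7% of all genes: C3, Cfb, C1qa and C1qb were above, and C1s1 and Serping1 below. The median log2 fold change of the 9 genes was 0.10, compared with -0.22 at 15 min. Against LPS 15 min, C3 (1.04 ± 0.13, edgeR adjusted p = 0.00626) and Cfb (0.85 ± 0.07, edgeR adjusted p = 0.00525) rose at 30 min, 2 of 9 genes against 4.65% of all genes in either direction and 2.69% higher. The call of C3 there was lost without the third LPS 15 min library, at a log2 fold change of 0.92 (edgeR adjusted p = 0.0638), and with the length offset (0.86, edgeR adjusted p = 0.337). Both calls were lost with library size as the only scaling (0.90 for C3 and 0.71 for Cfb, edgeR adjusted p = 0.0590 and 0.218) and in limma with 1 added (0.88 and 0.96, adjusted p = 1.00 and 0.107).

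Between 30 min and 4 h, 5 of the 9 genes rose, Cfb, C1ra, C3, C1s1 and Serping1, against 28.6% of all genes called in either direction and 16.9% higher. Their log2 fold changes were 4.51, 3.19, 3.00, 1.40 and 1.18. Between 15 min and 4 h, C4b (1.04) and C1qb (0.84) were called higher as well, which made 7 of 9 genes, against 36% of all genes in either direction and 19.4% higher. With library size as the only scaling, these calls of C4b (0.36) and C1qb (0.16) were lost (edgeR adjusted p = 1.00 for both), as was that of Serping1 between 30 min and 4 h (0.64, edgeR adjusted p = 0.0550). C1qa and C1qc were not called in any comparison. These comparisons share libraries with those against PBS, so that they are not independent of them.

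Levels can be compared between genes only per transcript length, for which transcript abundances with a constant sum per library (TPM) were used. In PBS the order was C1qa (101 ± 2.55 TPM, SD, n = 3), Serping1 (85.0 ± 2.65), C1qb (79.2 ± 0.995), C1qc (75.1 ± 3.69), C4b (55.1 ± 4.48), C1s1 (20.7 ± 0.340), C1ra (11.3 ± 0.627), Cfb (7.48 ± 1.19) and C3 (1.23 ± 0.316). Neighbours in that order did not overlap, other than C1qb and C1qc. At 4 h Cfb was first at 136 ± 2.75 TPM, followed by Serping1 (99.1 ± 2.20), C1qb (76.2 ± 2.31), C1qa (72.0 ± 2.94), C1ra (52.3 ± 2.36), C4b (48.3 ± 3.51), C1qc (39.9 ± 2.54), C1s1 (24.0 ± 0.697) and C3 (9.60 ± 0.253).

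Cfb thus moved from the eighth to the first place, and C3 stayed last. At 4 h only C1ra and C4b overlapped as neighbours. The place of C4b above C1s1 in both groups, and this overlap, rested on the short model C4b-203 described below. These values were not centred as CPM were, and the means of C1qa, C4b and C1qb at 4 h were below PBS in TPM and above it in CPM. At 15 min Serping1 stood behind the 3 C1q chains, at 63.8 ± 2.66 TPM, and at 30 min Cfb (9.86 ± 1.35) and C1ra (8.75 ± 0.787) overlapped.

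**Figure D4:**
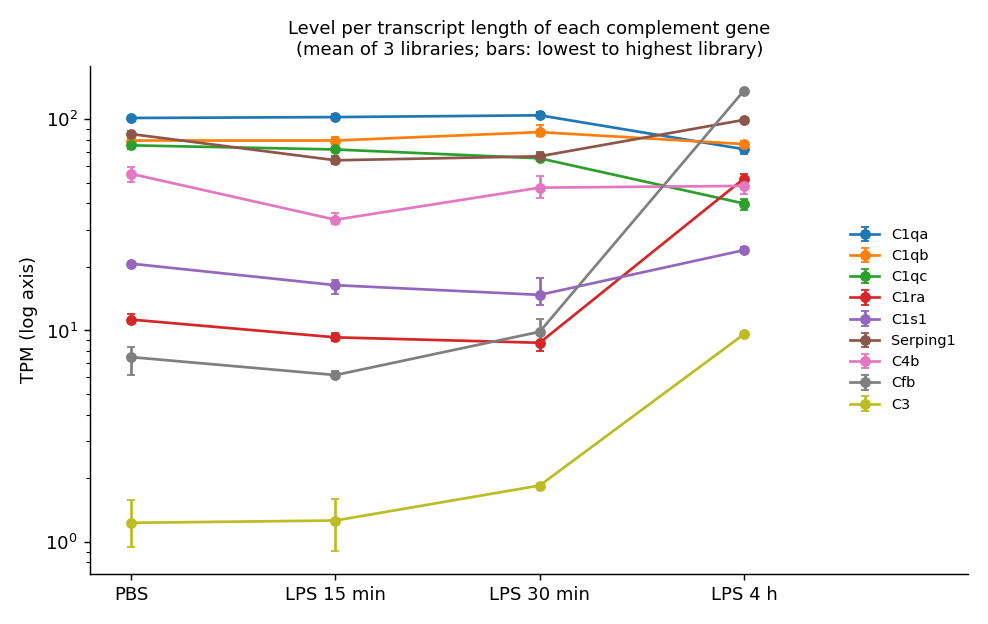
TPM of each complement gene (vertical axis, logarithmic) in the 4 groups (horizontal axis), as the mean of 3 libraries with bars from the lowest to the highest library. Cfb goes from 7.48 TPM in PBS to 136 TPM at 4 h and passes all others, whereas C1qa goes from 101 to 72.0 TPM on this scale, which is not centred on the other genes.

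The transcript estimates add detail on which models carried these values. C1qa, C1qb and C1ra have 1 annotated model each, and C3-201, the full-length coding model, held 94.0% to 100% of the C3 fragments in each library. Short models weigh more in TPM, and in PBS replicate 3 C3-203 made 0.834 of the 1.57 TPM of C3. C4b-203, a short model with a retained intron (749 bases), held 13.8% to 18.1% of the C4b fragments in PBS and 19.6% to 23.9% at 4 h, with no overlap, while C4b-201 held 81.3% to 86.0% and 75.7% to 80.1%. Cfb-201 and Cfb-202, coding models of 2737 and 2751 bases, could not be resolved, since the share of Cfb-201 went from 0% to 93.1% among PBS libraries alone.

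Near-identical copies could take reads from some members. Of the 31-base words of C4b-201, 48.8% also occur in C4a, and C4a took 5.91% to 6.78% of the fragments of both genes in PBS, 10.3% to 13.3% at 15 min, 8.07% to 9.09% at 30 min and 11.7% to 13.1% at 4 h. Summing both left C4b uncalled against PBS. C1ra shares 56.9% of its words with C1rb (0 fragments in every library), C1s1 37.0% with C1s2 (1 to 10 fragments), and Cfb 81.5% with the overlapping model Gm20547 (0 fragments), and reads made of shared words alone cannot be told apart.

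Of 51 other complement genes, 30 passed the filter on low counts. Those left out for low counts included C1rb, C1s2, Mbl1, Mbl2, Fcnb, Colec10, Cfd, C6, C7, C8a, C8b, C9, C4bp, Cfi, Cpn2, Cd55b, C5ar2 and Vsig4, and so most of the membrane attack components and the serum lectins. At 4 h 7 of the 30 rose and none fell, against 19% of all genes called higher and 32.8% in either direction, with a median log2 fold change of 0.19. With library size as the only scaling, 6 of the 30 were called higher and 11 lower, against 1907 and 8555 of all 19150 genes. In the classical pathway C1rl, a relative of C1r, rose by 1.59 on the log2 scale and C4a by 1.49, and C2 was not called (-0.40). Among 9 membrane regulators Cd55, which breaks up convertases, rose by 0.76 and Cr1l, the rodent regulator Crry, by 1.44, from 91.3 to 247 CPM. In the lectin pathway (5 tested), the terminal components (2) and the soluble regulators other than Serping1 (4), none was called at 4 h. The last include Clu, the clusterin gene, at 807.3 CPM in PBS and 1213 CPM at 4 h. On the TPM scale Clu was lower at 4 h without overlap, at 620.0 to 654.2 TPM against 779.5 to 826.8 TPM in PBS.

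Of 6 receptors, C5ar1, which binds C5a, rose by 3.11 at 4 h, and Itgam and Itgb2, the chains of complement receptor 3, rose by 2.51 and 2.04, all on the log2 scale. C3ar1 had 0.89 and just missed the threshold (edgeR adjusted p = 0.05002). C5ar1 was also the gene of the 30 called at 30 min, from 2.94 to 9.84 CPM (1.74 on the log2 scale). At 15 min 4 of the 30 rose, against 3.31% of all genes called higher: Cfp (properdin, 0.78) and Csmd1, Csmd2 and Csmd3 (1.07, 1.15 and 1.51), which neurons express, and C2 fell by 1.02 on the log2 scale. The calls of Cfp and C2 at 15 min were close to the threshold (edgeR adjusted p = 0.0421 and 0.0399), and DESeq2 with the same threshold called 3 of the 30 higher and 0 lower. In edgeR 7 of the 30 had an unadjusted p below 0.05, against 8.77% of all genes.

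Cell type markers also differed between the groups. The defining markers of endothelial cells were abundant in every library, with a summed level of the 10 genes of 11580 to 11860 CPM in PBS, 11930 to 12030 CPM at 15 min, 12820 to 12900 CPM at 30 min and 7706 to 7739 CPM at 4 h, when 6 of them fell and 1 rose. At 15 min and at 30 min, 1 of the 10 rose and 2 fell. In TPM the endothelial sum at 30 min was below PBS (9543 to 9638 against 10690 to 10950). Fewer cells of a type and less RNA per cell cannot be told apart in such bulk samples. At 15 min, beside the lower C4b, Serping1, C1s1 and C1ra, smooth muscle markers summed to 1865 to 1901 CPM against 2847 to 2884 CPM in PBS (3 of 6 fell), and perivascular fibroblast markers to 452 to 470 CPM against 668 to 705 CPM (3 of 8 fell). Astrocyte markers summed to 649 to 698 CPM against 834 to 861 CPM (1 of 8 fell). Neuron markers stood at 812 to 837 CPM against 542 to 562 CPM (3 of 8 rose), beside the higher Csmd genes. At 30 min fibroblast markers still summed to 535.5 to 543 CPM (2 of 8 fell). Beside the higher C3 at 30 min, the choroid plexus and ependyma list was at 13420 to 13750 CPM against 10070 to 10490 CPM in PBS (3 of 6 rose), the astrocyte list at 874 to 904.5 CPM (2 of 8 rose) and the monocyte list at 72.7 to 82.8 CPM against 45.1 to 54.0 CPM (1 of 6 rose and 1 fell). The monocyte sum was already at 68.2 to 74.3 CPM at 15 min, when C3 overlapped PBS. Much of it was Ly6c2, with a mean of 38.9 CPM in PBS. The median log2 fold change of the monocyte list was -0.37 at 15 min and -0.10 at 30 min. The part of these cells in the values was not tested.

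At 4 h the microglia list summed to 116 to 121 CPM against 186 to 191 CPM in PBS, with 5 of 10 genes lower, among them Cx3cr1 and P2ry12, and none higher. The perivascular macrophage list was at 349 to 355 CPM against 364 to 369 CPM, with 3 of 8 genes higher (Mrc1, Lyve1 and Pf4) and Stab1 lower. These are the cells known for C1q. In the same libraries C1qb was called higher, and C1qa and C1qc were not called. In TPM the means of C1qa, C1qb and C1qc were 72.0, 76.2 and 39.9 at 4 h, against 101, 79.2 and 75.1 in PBS. The microglia sum was at 39.5 to 49.7 TPM against 121 to 127 TPM in PBS. The monocyte list went from 45.1 to 54.0 CPM up to 203 to 207 CPM, with 5 of 6 genes higher, and the neutrophil list from 7.12 to 8.86 CPM up to 234.5 to 238 CPM, with all 8 tested genes higher and Ly6g and Mpo at 0 in PBS. Both lists were higher at 4 h, as were C5ar1, Itgam, Itgb2, Cfb, C3 and C1ra. At 15 min the monocyte sum was above PBS, with 0 of 6 genes called higher, 1 lower and a median log2 fold change of -0.37. C1ra was then at 16.5 CPM against 20.0 CPM in PBS. At 30 min the neutrophil sum overlapped PBS, and C3 and C5ar1 were called higher. The part of both lists in the complement genes was not tested.

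**Figure D5:**
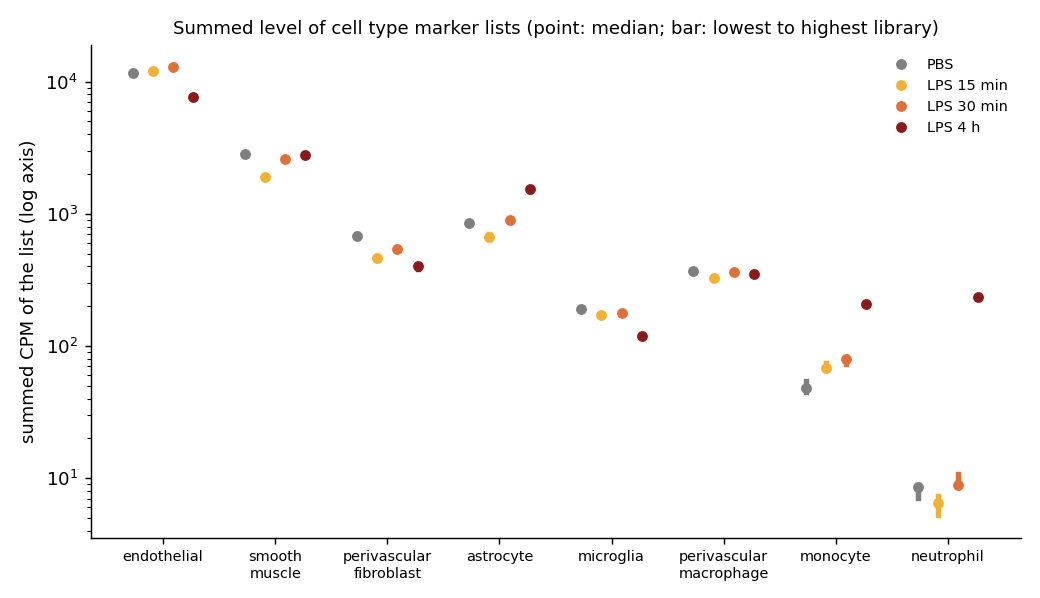
Summed CPM of 8 marker lists (vertical axis, logarithmic) by group, with the median library as a point and the range of 3 libraries as a bar. Neutrophil and monocyte lists are highest at 4 h, the endothelial, fibroblast and microglia lists are lowest at 4 h, and the smooth muscle list is lowest at 15 min.

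Other lists moved at 4 h too. Perivascular fibroblast markers summed to 382 to 404 CPM (5 of 8 fell), astrocyte markers to 1497 to 1562 CPM (3 of 8 rose), and neuron markers to 435 to 444 CPM (2 of 8 fell). Most of the astrocyte rise was Gja1, from a mean of 74.6 CPM in PBS to 522.5 CPM. Aldh1l1, Slc1a2, Slc1a3, Aldoc and S100b were not called. Pericyte markers were at 2726 to 2847 CPM against 2757 to 2821 CPM in PBS, with 3 of 8 lower, and oligodendrocyte markers at 476 to 488 CPM against 397 to 412 CPM, with 3 of 6 lower. The choroid plexus and ependyma list went from 10070 to 10490 CPM up to 16780 to 17650 CPM (4 of 6 rose), which was mostly Ttr, the gene that also carries the hepatocyte list, of which 2 of 6 genes were tested. On the TPM scale the oligodendrocyte, choroid plexus and hepatocyte sums were lower and not higher at 4 h than in PBS, and the astrocyte sums overlapped (370 to 406 TPM against 387 to 391 TPM). The pericyte sum was at 640 to 670 TPM against 1326 to 1371 TPM, and the perivascular macrophage sum at 158 to 171 TPM against 274.5 to 280 TPM, both without overlap.

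The genes outside complement with the time course most like each member were named by the smallest Euclidean distance between log2 fold changes against PBS at the 3 times, over 14553 genes. For Cfb these were Myc (distance 0.208; 5.34 at 4 h) and Cxcl16 (0.272; 4.92 at 4 h), and for C3 Gm15287 (0.197) and Litaf (0.252). For C1ra they were Smim3 (0.117) and Muc1 (0.124), for C1s1 3110082I17Rik (0.0724) and Atrnl1 (0.0825), and for Serping1 Gm48269 (0.0461) and Gm37158 (0.0660). For C4b they were Xirp1 (0.0829) and Ror1 (0.0832), for C1qa Sqle (0.0264) and Rpsa (0.0407), for C1qb Hmgn5 (0.0795) and Tfe3 (0.0855), and for C1qc Cox7b (0.0155) and Mydgf (0.0161). The distances were small for genes that changed little and larger for Cfb and C3.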

How the data were processed

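The authors quantified paired-end reads of 12 libraries with Salmon 1.2.1, imported them with tximport and normalized them with DESeq2 on GRCm38.p6, per the labels and methods. The deposited estimated counts are fragments per transcript, not normalized, and the deposited TPM adjust for transcript length and have a constant sum. The deposited gene table holds a normalized signal, counts divided by size and length factors. Its columns carry library numbers that match the sample files.

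Transcripts were joined to GENCODE M21 (139852 of 140948) and estimated counts were summed per gene and rounded. Groups came from the labels. With filterByExpr (minimum count 10, total 15, share 0.7) 19150 genes were tested in edgeR 4.0.16 (R 4.3.3), with TMM and all 12 libraries in 1 quasi-likelihood fit, and glmTreat with a limit of 1.5-fold and an adjusted p of 0.05. The SE is the log2 fold change divided by the root of the quasi-likelihood F. The code was tested on simulated data. Alternatives used DESeq2 1.42.0, limma 3.58.1 (1 or 10 added), other scalings, limits and filters, length offsets, summed copies and left-out libraries. Ratios were tested by exact permutation.

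The members, the other complement genes and the marker lists were chosen with earlier results of these data known. Named genes are the 9 members, other complement genes called against PBS or not tested (some are not reported here), and the 2 genes nearest to each member with a mean count of at least 50. The comparison of 4 h with 15 min, the ratios and the promoter motifs were added after values were seen. PU.1, Cx3cr1, P2ry12, Ly6c2, Gja1, C3ar1 and Clu were singled out after their values were seen. Each library was a separate pool of mice. Depth was 18.3 to 25.9 M fragments, and fragments without molecular identifiers are not independent molecules.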

Additional observations from a re-analysis of the deposited data

Results flagged for a closer look

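The change of 7 complement genes differed between times after LPS, in edgeR's test of one time against the other with Benjamini-Hochberg adjustment. Between 15 and 30 min the log2 difference was 1.04 for C3 and 0.85 for Cfb, in the same direction in 3 of 3 libraries. Between 30 min and 4 h it was 3.00 for C3, 3.19 for C1ra, 1.40 for C1s1, 4.51 for Cfb and 1.18 for Serping1. Between 15 min and 4 h it was 4.04 for C3, 1.04 for C4b, 0.84 for C1qb, 3.41 for C1ra, 1.39 for C1s1, 5.36 for Cfb and 1.54 for Serping1. In each, all 3 libraries of the later time were above all 3 of the earlier one. Groups of 3 libraries are too small for a test of single libraries that stand apart.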

How the results depend on the processing

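Leaving out each library in turn gave 0 to 0 called members at 15 min, 1 to 1 at 30 min, 6 to 6 at 4 h, 1 to 2 between 30 and 15 min (1 without LPS 15 min replicate 3), 5 to 5 between 4 h and 30 min and 7 to 7 between 4 h and 15 min. Of the 19594 to 19658 genes tested in these fits, 692 to 740, 775 to 826, 6021 to 6196, 759 to 814, 5244 to 5372 and 6587 to 6718 were called, in the same order. With no fold limit 5, 5 and 8 members were called at 15 min, at 30 min and between these times, against 38.6%, 36.9% and 37.4% of all genes. When a log2 fold change over 1.5 was also required, 0, 3, 0, 3 and 4 were called at 30 min, at 4 h, between 30 and 15 min, between 4 h and 30 min and between 4 h and 15 min, against 371, 2858, 252, 2450 and 2827 of all 19150 genes. The length offset gave 0 at 30 min and 1 between 30 and 15 min, against 728 and 699 of all 19150 genes. In limma both counts were 0, against 531 and 443 of 19145 genes with 1 added and 497 and 413 with 10 added. Library size only gave 0 between 30 and 15 min, against 1031 of all 19150 genes.

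Values near 0 changed sign. C1qb at 15 min was -0.0118 in DESeq2 and with RLE factors, -0.0132 and -0.0131 in limma (1 and 10 added), -0.0164 with library size only, and -0.0149 to 0.0299 over left-out libraries. C1qa at 15 min was -0.0012 with library size only and -0.0013 to 0.0393 over left-out libraries, and C1qc at 4 h ranged from -0.0432 to 0.0311 over them. C4b at 30 min was 0.0782 with the length offset, 0.0622 and 0.0619 in limma with 1 and 10 added, and 0.0081 with copies summed. C1s1 between 30 and 15 min was 0.14 with the length offset, 0.13 in limma with either value added, and -0.0578 to 0.0124 over left-out libraries. C1qc between 4 h and 15 min was -0.0030 with no filter. With library size only, C1qc at 30 min was -0.0621, C4b and C1qa at 4 h were -0.26 and -0.29, C4b, C1qa and C1qb between 4 h and 30 min were -0.0685, -0.48 and -0.13, and C1qa and C1qc between 4 h and 15 min were -0.29 and -0.63. This scaling does not centre the genes. As TPM, the log2 ratios of summed markers at 4 h were -0.0129 for astrocytes, -0.58 for oligodendrocytes, -0.13 for choroid plexus and -0.13 for hepatocytes. For the other changes of sign the cause was not tested.

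Replicate numbers are shared between groups but are not stated to pair libraries. The highest of 18 correlations of same-numbered deviations was 0.07, which cannot show whether libraries were prepared in matched sets. With the replicate block, 0, 1 and 6 members were called at the 3 times, against 776, 856 and 6235 of all 19150 genes. DESeq2 called 573, 652 and 5173 of all genes at the 3 times, where edgeR called 800, 877 and 6273. The few fragments of C3 in PBS limit the precision of its early values.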
